A study of Rattus norvegicus with 145 samples.

Results

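The striatum of young adult rats was compared between 6 and 2 months of age. These were the samples labelled as striatum at 2 or 6 months, 12 of the 145 bulk RNA sequencing libraries in the study. All came from male Long Evans rats: 3 heterozygous Q130 knock-in (KI) and 3 wild-type (WT) animals at each age. KI animals have 1 huntingtin allele with a lengthened CAG repeat, as a model of Huntington's disease, and WT animals have normal alleles only. The submitters added these 12 libraries as pipeline controls, re-analysed from an earlier series. The rest of the study covers striatum, cortex and cerebellum at 10, 19 and 24 months, from which 51 striatum libraries of both sexes are used below. No animal was sampled at both ages. The labels date no dissection, extraction or sequencing run. Age and any handling that went with it therefore cannot be told apart.

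The striatum is the main input nucleus of the basal ganglia. Most of its neurons are inhibitory medium spiny neurons, which receive glutamate from cortex and thalamus and dopamine from the midbrain, and these neurons are lost in Huntington's disease.  Between adolescence and full adulthood, myelin is still being added in the forebrain and the generation of new cells declines. Genes are listed by Ensembl rat identifier only, without symbols. Their cell types and pathways, the defining markers of striatal cells and the level of huntingtin were therefore not analysed here. The genes are described by identifier, by number, and by the brain region in which they were highest.

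Depth was even, with 29833476 to 33737984 estimated counts per library at 2 months and 28427177 to 32595926 at 6 months. Between 18043 and 18462 genes had at least 1 count. The largest component of variation over 15737 genes, 17.4% of the variance, placed the 6 libraries of 2 months between -19.5 and -13.8 and the 6 of 6 months between 9.54 and 21.7. The ages did not overlap on it. The second component held nearly as much, 17%, and on it WT M2 and M3 of 6 months lay at -40.8 and -17.8. The remaining 10 libraries ran from -9.36 to 18.9 on it. The WT libraries M2 and M3 of 6 months stood apart from the others. Their mean Spearman correlations with the other 11 libraries were 0.9878 and 0.9896, against 0.9915 to 0.9936 in the remaining 10. Across genes, the deviation of WT M2 from the mean of all libraries had a Spearman correlation of -0.338 with gene length, that of WT M3 had -0.197, and the other 10 ran from -0.0745 to 0.187. The median SD of log2 CPM (counts scaled to a library of 1000000) within WT at 6 months was 0.199, against 0.0947 to 0.114 in the other 3 groups. The count of genes, the comparison of genotypes, the later ages and the region groups are given with and without them. Counts of genes without M2 or without M3 were planned. The count without both, and the other results without M2, M3 or both, were added after the data were seen.

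**Figure D1:**
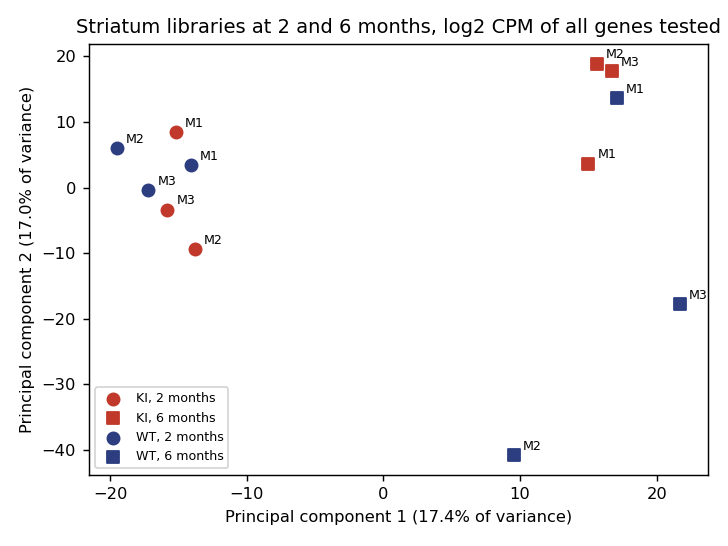
Position of each of the 12 striatum libraries on the first 2 principal components of log2 CPM over 15737 genes; colour gives genotype, shape gives age, and M1 to M3 number the animals of a group. The first component separates the ages without overlap, and the WT library M2 of 6 months lies at -40.8 on the second.

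Of 15737 genes tested, 459 were higher at 6 months than at 2 months and 462 were lower (edgeR with genotype as a covariate, adjusted p under 0.05). That is 5.85% of the genes tested, with 2.92% higher and 2.94% lower. Most of these differences were small. The median log2 difference was 0.39 for the genes that rose and -0.40 for those that fell, and 71 and 77 of them changed by less than 0.25. In bulk tissue, fewer cells of a type and less RNA per cell cannot be told apart. For 234 of the genes that rose, the lowest library of 6 months lay above the highest of 2 months, and for 266 of the genes that fell the reverse held. Of all genes tested, 3.86% had age groups of 6 libraries that did not overlap, 1.85% higher and 2.01% lower at 6 months.

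A 2-fold difference was passed by 35 genes that rose and 28 that fell, 0.400% of the genes tested. These were mostly weakly expressed genes: 23 of the 35 and 16 of the 28 had a mean log2 CPM under 1, where the median of all genes was 4. The extremes were log2 differences of 4.24 and -5.58. The age groups did not overlap for 21 of the 35 and 19 of the 28.

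The count moved with single libraries. Without WT M2 of 6 months it was 1490, of which 887 were among the 921. Without KI M1 of 2 months it was 611, without WT M3 of 2 months 593, without KI M1 of 6 months 594 and without KI M3 of 6 months 613. Without both WT M2 and M3 of 6 months it was 1966, a fit added after the data were seen, and 817 of the 921 were among them. No gene called in both was called in the opposite direction in any of these fits. The even balance between genes that rose and fell was not kept on the scale of the second deposited table, whose values are per transcript length and sum to 1000000 in each library. There 230 genes rose and 1114 fell (limma-trend on log2 of the value plus 1), and the median log2 difference of all genes was -0.0746. When the same values were scaled by TMM (trimmed mean of M-values, edgeR's correction for composition), a fit added after the data were seen, 396 rose and 407 fell, and the median was -0.00437. The 10 most abundant genes of a library held 36.2% to 37.8% of that table's total at 2 months and 37.1% to 42.1% at 6 months.

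The genes described singly were chosen by p among those whose age groups did not overlap, so their separation is a description. The smallest p of all genes belonged to ENSRNOG00000009345, which fell. In WT its level was 350, 345 and 331 CPM in the 3 animals of 2 months and 145, 143 and 131 CPM in those of 6 months. In KI it was 305, 294 and 344 CPM and then 140, 137 and 118 CPM. Every library of 2 months was above every library of 6 months, and the means were 328 ± 23.4 and 136 ± 9.87 CPM (SD, n = 6). The log2 difference was -1.27 ± 0.0577 (SE; edgeR adjusted p = 2.23e-08). It was -1.28 in WT and -1.26 in KI fitted alone (edgeR adjusted p = 0.00121 and 3.42e-05). On the scale per transcript length the gene went from 153 ± 10.4 to 59.5 ± 6.07 (SD, n = 6), above 93.7% of the genes tested. In males of 10, 19 and 24 months it stood at 136 ± 67.2, 100 ± 19.5 and 140 ± 21.4 CPM (SD, n = 10, 10 and 6). None of those later means returned to the level of 2 months, which was 343 ± 24.7 CPM (n = 6) when all striatum libraries were scaled together. The spread at 10 months was wide, from 59.7 to 244 CPM. In WT animals of 19 months it was higher in striatum than in cortex and cerebellum, by log2 differences of 0.68 and 0.77 (edgeR adjusted p = 7.37e-08 and 9.43e-08).

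The second gene by p, ENSRNOG00000016552, also fell. Its levels at 2 months were 343, 345 and 348 CPM in WT and 310, 316 and 317 CPM in KI. At 6 months they were 160, 175 and 185 CPM in WT and 175, 181 and 171 CPM in KI. The ages were far apart, and at 2 months the 3 KI animals lay below the 3 WT animals. With 3 animals a side such an order can arise without a genotype difference, and genotype within an age was not tested here. The log2 difference between ages was -0.92 ± 0.0494 (SE; edgeR adjusted p = 1.24e-07). Whether the age difference itself differed between genotypes was tested, and the value of 0.16 ± 0.0921 (SE) did not pass (edgeR adjusted p = 0.709). With all striatum libraries scaled together the males stood at 344 ± 17.9 CPM at 2 months and 182 ± 9.37 at 6 months (SD, n = 6). They stood at 142 ± 17.5 at 10 months, 112 ± 17.2 at 19 months (SD, n = 10) and 118 ± 24.8 CPM at 24 months (SD, n = 6). The gene was lower again at 19 than at 10 months, in animals that the younger comparison does not share. The log2 difference was -0.32 ± 0.0532 (SE; edgeR adjusted p = 7.01e-05). Animals of those ages carry identifiers of different forms, as given below. In WT animals of 19 months it was lower in striatum than in cortex, with a log2 difference of -1.60 (edgeR adjusted p = 3.31e-15), at 334 ± 31 CPM in cortex, 109 ± 11.5 in striatum and 102 ± 10.8 in cerebellum (SD, n = 10).

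Among the genes that rose, ENSRNOG00000020254 had the smallest p. It stood at 24.6, 27.5 and 30 CPM in WT and 28, 26.4 and 30.4 CPM in KI at 2 months. At 6 months it stood at 52.8, 55.8 and 48.2 CPM in WT and 59.8, 47.3 and 46.4 CPM in KI. All 6 libraries of 6 months lay above all 6 of 2 months. The log2 difference was 0.90 ± 0.0741 (SE; edgeR adjusted p = 7.95e-06). When all striatum libraries were scaled together, it was 29 ± 2.27 CPM at 2 months and 53.8 ± 5.5 at 6 months (SD, n = 6). On that scale it was 49 ± 9.99 CPM in males of 10 months, 65.9 ± 15.2 at 19 months and 45.8 ± 9.15 at 24 months (SD, n = 10, 10 and 6). The difference between 10 and 19 months was 0.22 ± 0.0906 (SE) and did not pass (edgeR adjusted p = 0.0903). In WT animals of 19 months its striatal level did not differ beyond its spread from that in cortex or cerebellum, with log2 differences of -0.04 and -0.06 (edgeR adjusted p = 0.713 and 0.681).

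ENSRNOG00000002831, next among the genes that rose, was expressed weakly. Its levels at 2 months were 3.93, 4 and 4.42 CPM in WT and 4.28, 4.32 and 4.92 CPM in KI. At 6 months they were 7.47, 7.42 and 8.03 CPM in WT and 10.7, 8.39 and 8.28 CPM in KI. At 6 months each KI animal lay above each WT animal, but genotype within an age was not tested here. The log2 difference was 0.96 ± 0.0886 (SE; edgeR adjusted p = 1.97e-05), and the test of a genotype dependence gave 0.13 ± 0.18 (SE; edgeR adjusted p = 0.866). With all 63 striatum libraries in 1 fit the difference was 0.95 and did not pass (edgeR adjusted p = 0.0709). Between 10 and 19 months it was -0.33 ± 0.169 (SE) and did not pass (edgeR adjusted p = 0.195). When all striatum libraries were scaled together, it was 4.5 ± 0.366 CPM at 2 months and 8.72 ± 1.26 at 6 months (SD, n = 6). On that scale it ranged from 6.65 to 40.1 CPM in males of 10 months, with a mean of 19.1 ± 11.1 (SD, n = 10), which is wider than at any other age. In WT animals of 19 months it was higher in striatum than in cortex by a log2 difference of 1.03 (edgeR adjusted p = 1.53e-07).

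**Figure D2:**
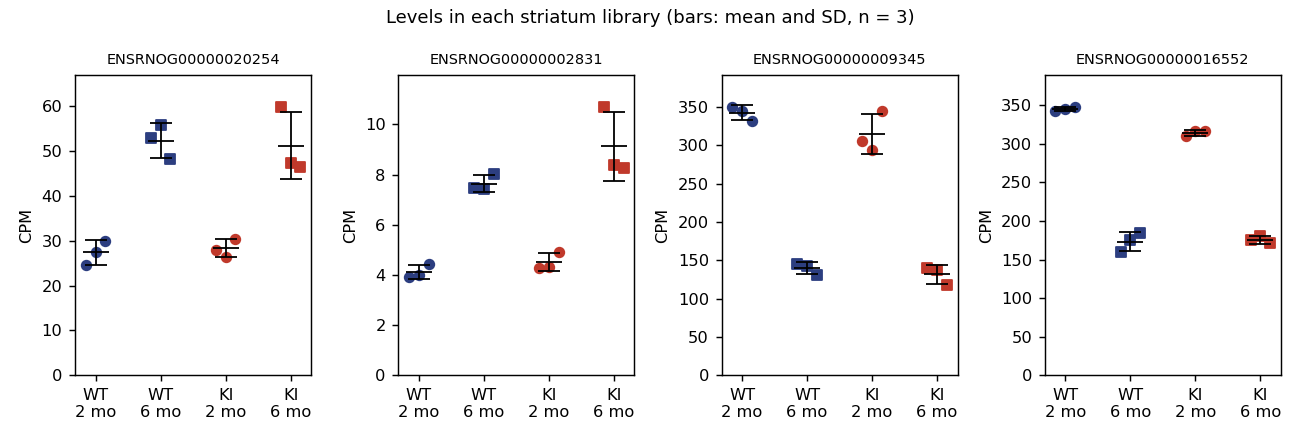
CPM of the 2 genes with the smallest p among those that rose (left) and among those that fell (right) in each library of 2 and 6 months, by genotype; bars are the mean and SD of 3 animals. The genes were chosen among those whose 6 libraries of one age lie clear of the 6 of the other.

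The age difference was then fitted in each genotype alone, which gives estimates from separate animals. These animals need not be unrelated. At 2 months every animal shares the first part of the identifier in its description with others of that age, KI and WT alike. At 6 months KI M1 shares it with WT M1, and KI M2 with KI M3. WT M2 and M3 of 6 months, the libraries that stood apart, share it with no other animal. No first part occurs at both ages. What that part stands for is not stated, and it was not modelled. In KI striatum 347 genes rose and 364 fell of 15379 tested, or 4.62% (2.26% and 2.37%). In WT striatum 14 rose and 35 fell of 15394, or 0.318% with 0.0909% higher and 0.227% lower (edgeR, n = 3 per age). With DESeq2 the WT count was 302, with no count filter 111 and with each library's length slope as a covariate 6. The common coefficient of variation was 8.2% in KI and 13.3% in WT. At 2 months KI animals had the larger median SD, 0.114 against 0.0947, and the larger WT value comes from the group of 6 months that holds M2 and M3. When all 12 libraries shared 1 estimate of the spread, a fit added after the data were seen, the order of the counts turned, with 290 genes in WT and 202 in KI. The number of genes therefore does not rank the genotypes. Single libraries moved these counts too. In WT it was 3 without M1 or without M2 of 2 months, 8 without M3 of 2 months, 108 without M1 of 6 months and 29 without M3 of 6 months. In KI it was 468 without M2 of 2 months, 264 without M2 of 6 months and 246 without M3 of 6 months.

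The genes called in 1 genotype mostly had the same direction in the other. Of the 341 genes that rose in KI and were tested in WT, 285 (83.6%) were also higher at 6 months in WT, where 51.2% of all genes were. Of the 362 that fell in KI, 330 (91.2%) were also lower in WT. Their median log2 differences were 0.44 and -0.40 in KI and 0.27 and -0.25 in WT. The choice of genes by a test in KI favours larger values there. Of the 34 genes that fell in WT and were tested in KI, all 34 were lower in KI and 34 were called. Of the 13 that rose in WT, 12 were higher in KI and 6 were called. Of all genes tested in both, 49.4% were higher at 6 months in KI. Of all genes tested in KI, 2.26% were called higher and 2.37% lower. In the other direction, 6 of the 341 and 34 of the 362 were called in WT. Over all genes tested in WT these shares were 0.0909% and 0.227%. Without WT M2 of 6 months 92.1% of the KI risers and 96.7% of the KI fallers had the same direction in WT, and without M3 79% and 89%. Without both, which leaves 1 WT animal of that age, the shares were 93% and 95.6%. Of all genes tested in both genotypes, 48.9%, 50.7% and 51.4% were higher at 6 months in WT in these fits, in that order. No gene was called in opposite directions. Over all 15223 genes tested in both, 56% had the same direction, and the log2 differences had a Spearman correlation of 0.252 across genes. Genes are no independent replicates, and they share library depth and normalisation within a genotype.

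**Figure D3:**
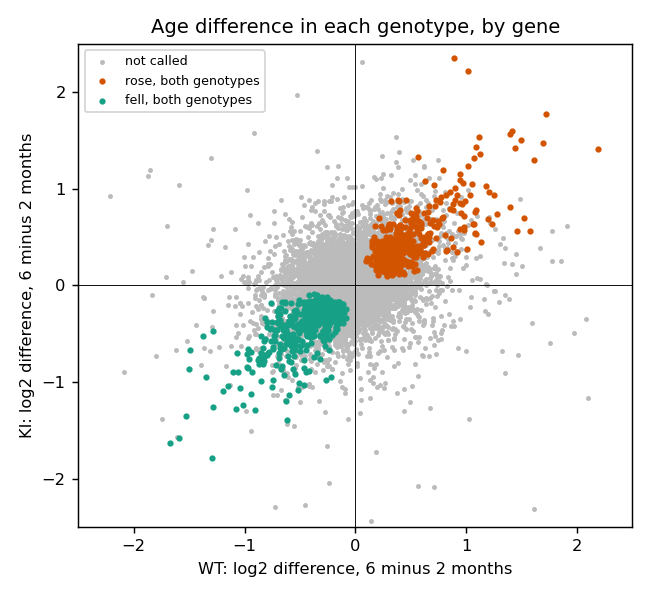
Log2 difference between 6 and 2 months of each gene in WT (horizontal) and in KI (vertical), each fitted on its own 6 libraries; coloured genes passed in the fit of both genotypes. The genes that rose lie to the upper right and those that fell to the lower left, which their choice on both genotypes together favours; 22 genes lie beyond the axes at 2.5.

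The age difference was not shown to depend on the Q130 allele. In the test of age by genotype 0 of 15737 genes passed with edgeR, and DESeq2 and limma-trend called 1 gene each. With edgeR 1064 of the 15737 had an unadjusted p under 0.05, more than the 787 that chance alone would give. What this excess stands for was not tested. Of the genes that changed with age, 19 of the 459 and 34 of the 462 had an unadjusted p under 0.05 in that test, beside the 1064 of 15737 over all genes. Without the WT library M1 of 6 months, 100 genes passed. The remaining WT libraries of that age are then M2 and M3, whose deviations correlate with gene length as given above, and genotype and that trend cannot be told apart in this fit.

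The older animals lay on the side of 6 months. The striatum libraries of 10, 19 and 24 months took no part in choosing the genes. The libraries of 2 months did, and a choice of genes for being low or high in them favours later libraries that lie on the other side. The mean log2 CPM of the 459 genes that rose was 4.01 ± 0.0443 at 2 months and 4.50 ± 0.0516 at 6 months (SD, n = 6). In males it was 4.49 ± 0.134 at 10 months and 4.48 ± 0.137 at 19 months (SD, n = 10), and 4.69 ± 0.19 at 24 months (SD, n = 6). In all 51 later libraries, females included, it lay above the highest library of 2 months, with a lowest value of 4.27 against 4.05. The 462 genes that fell went from 4.87 ± 0.0469 to 4.39 ± 0.0282 (SD, n = 6). They stood at 4.45 ± 0.164, 4.28 ± 0.0796 and 4.44 ± 0.101 in males of 10, 19 and 24 months (SD, n = 10, 10 and 6). All 51 later libraries lay below the lowest library of 2 months, with a highest value of 4.7 against 4.81. Females of 10 months had 4.39 ± 0.0787 for the genes that rose and 4.32 ± 0.123 for those that fell (SD, n = 10), and females were not sampled at the younger ages.

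Taken gene by gene, 402 of the 459 genes that rose (87.6%) had a mean in 10-month males above that of 2 months. Among genes not called that were higher at 6 than at 2 months this was 62.5%. Of the 462 that fell, 424 (91.8%) were still below the 2-month mean at 10 months, against 63.3% of the genes not called that were lower at 6 months. The genes not called were not matched in the size of their difference. A choice by a large difference from the 2-month libraries itself favours a higher share, so the gap between these shares measures no persistence. At 10 months 207 of the genes that rose lay beyond the 6-month mean and 195 lay between the 2 younger means. The libraries of 2 and 6 months come from another series than the later ones, and a shift between the series cannot be told apart from age in these comparisons.

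**Figure D4:**
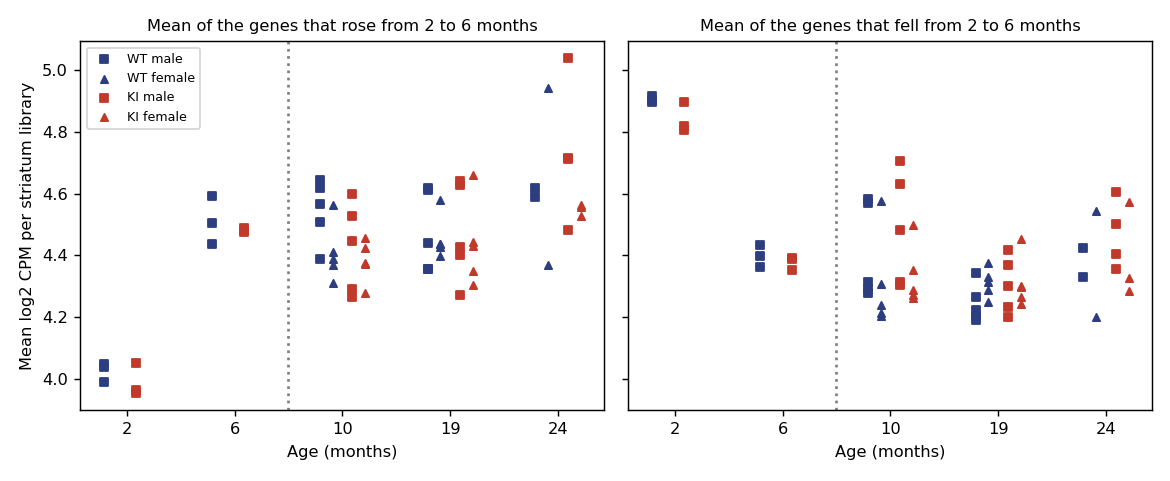
Mean log2 CPM of the genes that rose (left) and of the genes that fell (right) between 2 and 6 months in each striatum library, by age in months, with genotype as colour and sex as shape; the dotted line parts the libraries used to choose the genes from the later ones. No later library reaches the range of 2 months; at 24 months 1 library stands at 5.04 for the genes that rose, and at 10 months 1 stands at 4.7 for the genes that fell.

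Between 10 and 19 months, a comparison of 20 libraries with 20 others that shares no library with the younger one, 2523 of 16020 genes changed, 15.7%, with 7.12% higher and 8.63% lower at 19 months (edgeR with genotype and sex as covariates). Animals of 10 months and animals of 19 months carry identifiers of different forms. What the forms stand for is not stated, and they cannot be told apart from age in this comparison. Of the genes that fell from 2 to 6 months, 79 of 459 tested (17.2%) fell again and 15 (3.27%) rose. The shares over all genes tested at the younger ages were 8.73% and 7.2%. Their median log2 difference was -0.0784, and 136 of the 459 were positive. The genes that rose did not continue in 1 direction, with 46 of 459 (10%) higher and 52 (11.3%) lower at 19 months and a median of 0.028. In males alone 434 genes changed between 10 and 19 months, and 1.48% of the genes tested at the younger ages rose and 1.29% fell. Of the genes that fell when young, 14 of 456 (3.07%) fell again and 3 rose, with a median of -0.16, and of those that rose 10 rose and 12 fell. The pattern among the fallers depended on the libraries that stood apart. For the genes called without WT M2 of 6 months, 95 of 734 fallers (12.9%) fell again and 54 (7.36%) rose, and without M3 77 of 468 (16.5%) and 16 (3.42%). Without both, 103 of 1098 (9.38%) fell again and 100 (9.11%) rose, with a median of -0.000268.

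Where in the brain these genes are expressed was read from WT animals of 19 months. Striatum differed from cortex in 69.7% of genes, with 35.7% higher and 34.0% lower in striatum, and from cerebellum in 78.6%, with 40.1% and 38.5% (edgeR with sex as a covariate, n = 10 per region). Of the 459 genes that rose with age, 458 were tested there, and 246 (53.7%) were higher in striatum than in cortex while 63 (13.8%) were lower. Over all genes tested at the younger ages the shares were 36.3% and 33.4%. Against cerebellum 311 (67.9%) were higher and 69 (15.1%) lower, where all genes gave 41% and 37.6%. The genes that fell were split evenly against cortex, with 177 higher and 188 lower in striatum of 455 tested, and against cerebellum 237 of 454 were higher and 151 lower. For the genes called without WT M2 and M3 of 6 months, 440 of 858 risers were higher and 141 lower in striatum than in cortex, and 365 of 1094 fallers were higher and 504 lower. Without M2 alone the fallers were 226 higher and 374 lower, and without M3 alone 200 and 163, so the split of the fallers against cortex changed sides with these libraries.

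Most genes enriched in 1 region did not pass the test, and more cortex-enriched genes fell than rose in each fit. Genes with at least 4 times the mean CPM in 1 region than in both others were taken as enriched there. Of 271 striatum-enriched genes 17 rose and 8 fell, 6.27% and 2.95%, and their median log2 difference was 0.09. Of 152 cortex-enriched genes 0 rose and 10 fell (6.58%), and their median was -0.24, with 35 above 0. Of 263 cerebellum-enriched genes 2 rose and 6 fell (0.76% and 2.28%), with a median of -0.05. Over all genes 2.92% rose and 2.94% fell, and the median was -0.00198. Without WT M2 of 6 months 26 striatum-enriched genes rose and 11 fell (9.59% and 4.06%). In that fit 1 cortex-enriched gene rose and 28 fell (0.649% and 18.2%), where 4.74% and 4.63% of all genes did. Without M3 the numbers were 11 and 9 for striatum (4.06% and 3.32%) and 0 and 7 for cortex (0% and 4.49%). Of all genes 2.48% rose and 2.96% fell in that fit. Without both, 30 striatum-enriched genes rose and 25 fell (11.1% and 9.23%, where 5.34% and 6.81% of all genes did), and 1 cortex-enriched gene rose and 21 fell. Risers and fallers among striatum-enriched genes were therefore close in number in the fits without M3. Their share of risers stayed above that of all genes in each of these fits, and their median stayed between 0.078 and 0.094. The cortex-enriched median stayed between -0.297 and -0.171.

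Cortex-enriched genes also differed between libraries within an age. Their mean log2 CPM ran from 0.888 to 1.31 at 2 months and from 0.703 to 1.23 at 6 months. WT M2 of 6 months, at 1.23, lay within the range of 2 months, and the other 5 libraries of 6 months ran from 0.703 to 0.938. Striatum-enriched genes ran from 2.76 to 2.97 at 2 months, with a median of 2.82. At 6 months they ran from 2.8 to 2.96, with a median of 2.94, and the ranges overlapped. WT M2 was the lowest of 6 months, and the other 5 libraries of that age ran from 2.91 to 2.96. With the cortex-enriched mean of each library as a covariate, a fit added after the data were seen, 98 genes rose and 144 fell, and 228 of these 242 were among the 921. This covariate differs between the ages itself, so the fit also removes part of the age difference. All 4 genes named above passed in it. Whether cortical tissue took part in the calls was not tested beyond this fit.

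**Figure D5:**
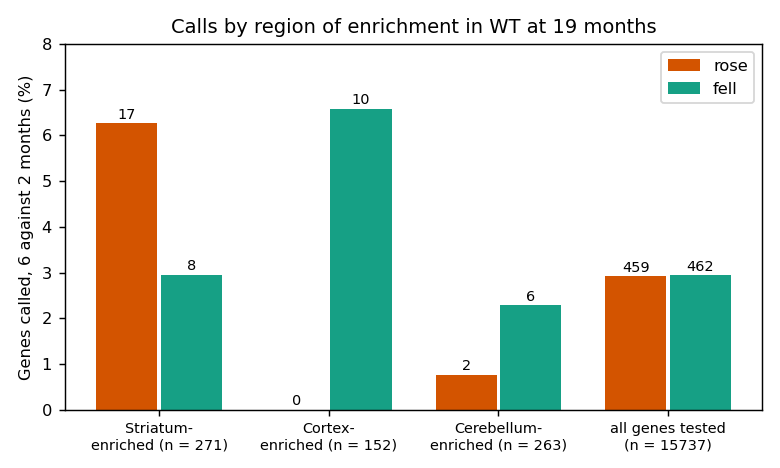
Share of genes that rose or fell between 2 and 6 months among genes enriched in striatum, cortex or cerebellum of WT animals at 19 months, and among all genes tested; numbers above the bars are genes. Of the striatum-enriched genes 6.27% rose and 2.95% fell, and of the cortex-enriched genes 0% and 6.58%; without WT M2 and M3 of 6 months these shares were 11.1% and 9.23%, and 0.637% and 13.4%.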

How the data were processed

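Libraries were assigned to genotype, region, age, sex and replicate from the submitters' titles, and columns to libraries by the identifier in each description. Total RNA came from flash-frozen tissue, per the labels' protocols. The authors deposited estimated counts, not all whole (7.8% of values in these libraries), for 32883 genes; the design assumed whole counts, and values were rounded. Their second table is named FPKM, but each deposited library sums to 1000000, so it was treated as TPM. The reference is Rat.B6.0, per the file headers; no source used here names the aligner, counting tool or annotation release. With 0 identifiers matched to a symbol, the 32 gene lists and cell type markers, and any sequence, were not used here.

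Genes were tested with edgeR 4.0.16 in R 4.3.3 (filterByExpr, TMM, robust quasi-likelihood F test, Benjamini-Hochberg over all genes, threshold 0.05). Levels are CPM. Mean log2 CPM used a prior count of 2. Gene length is relative, from the ratio of both tables. Enriched genes needed a mean of at least 1 CPM. Named genes were the first 2 by p in each direction whose mean log2 CPM reached 1 and whose age groups did not overlap. Alternatives were RLE factors, DESeq2 1.42.0, count filters, limma 3.58.1 on TPM, length slope, replicate number as a block and leaving out libraries. Fits were tested on simulated data. The samples, lists and rules were chosen with earlier results of these data known. The labels do not say that animals of a group came from separate litters, so p-values measure the spread between these animals. The first part of the identifiers, which some animals share within and between genotypes, was not modelled. No pair of libraries of a group agreed within counting noise.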

Additional observations from a re-analysis of the deposited data

Results flagged for a closer look

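Of 57 sets of 4 to 10 libraries examined, 5 held 1 library whose gap to its nearest neighbour was large for the range of the set. Chance gives about 1 in 20. ENSRNOG00000002831 stood at 18 CPM in WT female F1 of 10 months, against 8.96 to 9.93 in the other 4. ENSRNOG00000009345 stood at 193 CPM in the same animal, against 57.7 to 81.4. The second of these also stood at 142 CPM in KI male M4 of 19 months, against 84.8 to 99.3. The mean log2 CPM of striatum-enriched genes was 2.8 in WT M2 of 6 months, against 2.91 to 2.96 in the other 5 libraries of that age. The mean of the genes that rose minus that of the genes that fell was -0.22 in KI female F5 of 10 months, against 0.0844 to 0.151 in the other 4 females.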

How the results depend on the processing

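The 921 genes of the comparison of both genotypes became 1542 with length slope as a covariate, 127 with all 63 striatum libraries in 1 fit, 242 with the cortex covariate and 1966 without WT M2 and M3 of 6 months, the last 2 added later. Leaving out 1 library gave 593 to 1490. In WT, 49 genes became 302 with DESeq2, 111 with no count filter, 88, 83 and 15 with limma-trend (TPM plus 1, plus 0.1, and plus 1 unfiltered), 6 with the length slope and 290 in the fit of 4 groups; leaving out 1 library gave 3 to 108. In KI, 711 became 278 with unfiltered limma-trend, 372 with the length slope and 202 in the fit of 4 groups; leaving out 1 gave 246 to 794. For age by genotype, DESeq2 gave 1, limma-trend 1 and, unfiltered, 2; leaving out 1 gave 0 to 100. The 19 against 10 months count of 2523 became 4038 with the length slope and 434 in males. The cortex-enriched median became -0.0322 with the cortex covariate, which is built from the same genes. The cause of the other shifts was not tested. With replicate number as a block the counts were 901 for both genotypes, 78 in WT, 309 in KI and 0 for age by genotype, and 2423 for 19 against 10 months within sex. Same-numbered libraries of the 2 ages had deviations correlated between -0.0911 and 0.0306, and libraries of different numbers between -0.0829 and 0.0885. With so few pairs, these values do not show whether same-numbered animals shared any handling. On the unscaled TPM values the median over all WT genes shifted to -0.105 (TPM plus 0.1). ENSRNOG00000002831 did not pass with all 63 libraries (edgeR adjusted p = 0.0709, log2 difference 0.95); the other 3 named genes passed in all 26 alternatives. Counts per gene list were not run for want of symbols. Of the 3935 genes of lowest level 1.98% and 1.42% were called higher and lower, and of the 3934 of highest level 3.2% and 4.19%; the part of depth was not tested.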

Other observations

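The relation of the called genes to gene length changed with the libraries that stood apart. With all 12 libraries, 168 of the 3934 longest genes fell and 90 rose, and 51 of the 3935 shortest fell and 128 rose. Without WT M2 of 6 months 214 of the longest genes fell and 235 rose. Without WT M2 and M3 of 6 months, a fit added after the data were seen, 260 of the 4043 longest fell and 330 rose, and 219 of the 4043 shortest fell and 157 rose, so the direction turned. The Spearman correlation of the log2 difference with length, across genes, was -0.0842 with all libraries, 0.0145 without M2, -0.046 without M3 and 0.0944 without both.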
